A study of Mus musculus with 8 samples.

Results

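The 38 Hox genes analysed here lie in 4 clusters and were chosen by name and position. They are 10 HoxA, 10 HoxB, 9 HoxC and 9 HoxD genes, out of 21900 protein-coding genes in the gene table. The clusters were read through 4 windows of the mouse build mm9, which hold 130 of the 67486 islands of H3K27me3 listed for 6 livers. The windows were HoxA on chromosome 6 from 51900001 to 52350000, HoxB on chromosome 11 from 95850001 to 96450000, HoxC on chromosome 15 from 102600001 to 103100000, and HoxD on chromosome 2 from 74350001 to 74750000. An island is a stretch that a peak caller listed as enriched for the mark.

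Chromatin immunoprecipitation sequencing (ChIP-seq) for H3K27me3 was carried out on livers of wild-type male CD-1 mice aged 7 weeks. Mice received TCPOBOP, an agonist of the nuclear receptor CAR, at 3 mg/kg, or vehicle, 1% DMSO in corn oil, and the livers were taken after 3 h. DNA fragments of 600 to 1100 bp, digested to 500 bp, gave 3 vehicle and 3 TCPOBOP libraries, each from an individual liver. The ChIP sample of replicate 1 of each treatment gave a further library of fragments over 1100 bp, digested to 200 bp, which entered no test. CD-1 is an outbred stock, and the whole liver holds several cell types, so fewer marked cells and less mark per cell cannot be told apart. None of the 8 lists held an island in a window of 70 kb around Alb, the albumin gene of hepatocytes, and its fetal relative Afp. How often other windows of this size are free of islands was not computed, so this absence does not identify the tissue.

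Hox genes encode homeodomain transcription factors that give cells along the body axis their position. Their order on the chromosome follows the order in which they are used, from the low-numbered genes of the hindbrain to the high-numbered genes of the trunk end, limb and genital region. Where Hox genes are silent, Polycomb repressive complex 2 lays H3K27me3 over the cluster, and CpG-rich DNA is known to recruit Polycomb complexes.

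The promoter sequences show the CpG content of these genes, a feature that the choice of members did not use. RefSeq promoters of build GRCm38.p6 matched 22 of the 38 genes (9 HoxA, 3 HoxB, 1 HoxC and 9 HoxD) with 24 promoters, and the 250 bases before each start were read. The motif searched was CG, which is the same on either strand. For each cluster the matched promoter with the most CpG is shown, followed by the one with the fewest of all, with every CG in capitals. The Hoxa13 promoter (35 CpG, chr6:52260881-52261130, minus strand), of a gene needed for digits and the genital tract, and the Hoxd13 promoter (31 CpG, chr2:74667975-74668224, plus strand), of its paralogue in limb patterning, head the list. They are set beside Hoxb4 (14 CpG, chr11:96318017-96318266, plus strand), Hoxc4 (8 CpG, chr15:103034145-103034394, plus strand) and Hoxd11 (2 CpG, chr2:74679308-74679557, plus strand).
Hoxa13: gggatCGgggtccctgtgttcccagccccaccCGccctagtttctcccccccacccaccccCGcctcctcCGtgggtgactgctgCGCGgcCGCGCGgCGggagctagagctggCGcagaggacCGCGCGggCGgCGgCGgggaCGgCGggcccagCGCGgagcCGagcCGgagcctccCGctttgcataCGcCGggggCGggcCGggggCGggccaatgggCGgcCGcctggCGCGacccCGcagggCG
Hoxd13: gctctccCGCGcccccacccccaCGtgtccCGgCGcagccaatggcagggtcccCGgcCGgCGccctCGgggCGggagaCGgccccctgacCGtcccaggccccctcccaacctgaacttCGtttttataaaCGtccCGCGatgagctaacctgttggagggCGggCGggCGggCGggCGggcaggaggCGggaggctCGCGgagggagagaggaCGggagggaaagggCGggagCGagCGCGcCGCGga
Hoxb4: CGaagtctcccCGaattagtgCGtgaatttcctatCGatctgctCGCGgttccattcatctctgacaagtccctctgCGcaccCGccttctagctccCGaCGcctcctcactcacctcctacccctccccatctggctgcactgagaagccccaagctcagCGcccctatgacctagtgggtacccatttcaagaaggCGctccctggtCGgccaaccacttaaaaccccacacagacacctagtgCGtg
Hoxc4: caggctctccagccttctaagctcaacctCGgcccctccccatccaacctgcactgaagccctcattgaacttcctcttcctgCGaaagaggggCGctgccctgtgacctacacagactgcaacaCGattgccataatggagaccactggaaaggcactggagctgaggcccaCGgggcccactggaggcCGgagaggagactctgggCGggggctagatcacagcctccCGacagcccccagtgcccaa
Hoxd11: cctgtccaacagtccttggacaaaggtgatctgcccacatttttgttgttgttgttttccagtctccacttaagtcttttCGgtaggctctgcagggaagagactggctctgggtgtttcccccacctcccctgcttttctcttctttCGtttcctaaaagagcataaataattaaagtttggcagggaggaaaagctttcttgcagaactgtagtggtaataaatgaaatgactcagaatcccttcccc

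The 24 Hox promoters held a median of 12.5 CpG (2 to 35), against 6 over 32851 promoters of the same length. Of the 24, 15 held 10 or more CpG, as did 37.8% of all promoters, and 19 exceeded the median of all, as did 46.3% of all. Median GC content was 58.6% against 52.4%. In the liver-specific gene Alb the promoter held 2 CpG, and in Afp it held 1. The content was uneven within the clusters: the neighbours Hoxa5 and Hoxa6, both active in the trunk region of the embryo, held 28 and 24 CpG, while Hoxa9, a regulator of blood progenitors, held 3. Hoxd4 also held 3, while Hoxd1, next to it in the gene order, held 24. Hoxd11 has a second promoter in the table with 20 CpG, so the sequence with 2 describes that start only. The promoters were not placed on mm9, and the HoxB and HoxC counts rest on few matched genes.

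**Figure D1:**
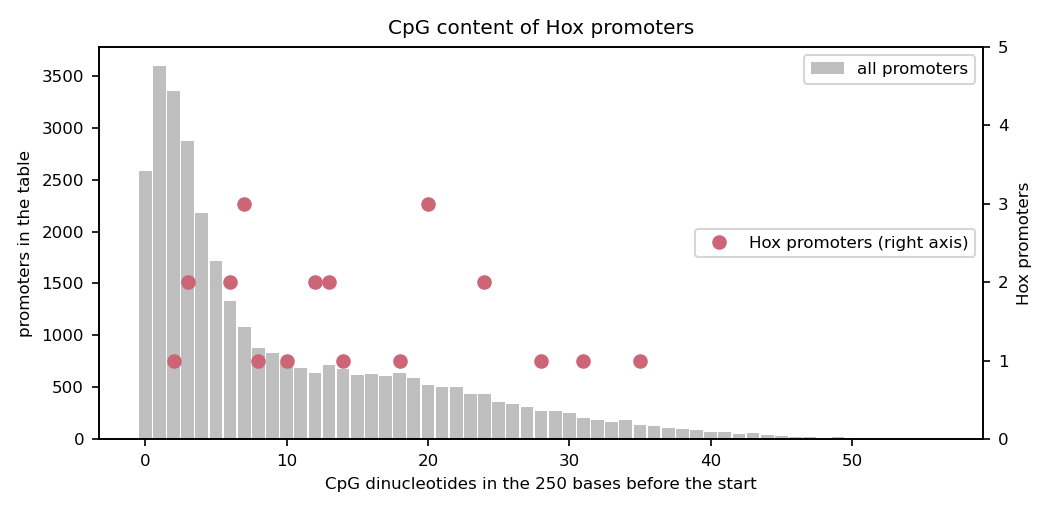
CpG dinucleotides in the 250 bases before the start (horizontal axis) for 32851 RefSeq promoters (grey bars, left axis, number of promoters) and for the 24 Hox promoters (points, right axis, number of promoters at each CpG count). The Hox promoters run from 2 to 35 CpG, and their median of 12.5 lies above the median of 6 of all promoters.

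All 4 clusters lay under H3K27me3 in both treatments, and HoxA was the most evenly covered. An approximate gene-bearing span was set for each cluster, of 120 kb for HoxA, 190 kb for HoxB, 120 kb for HoxC and 110 kb for HoxD. The share of the span under islands in all 6 lists of 600 to 1100 bp was 100% for HoxA, 97.1% for HoxD, 94.7% for HoxC and 78.1% for HoxB. With at least 5 of the 6 lists asked for, it was 100% for HoxA, HoxC and HoxD and 95% for HoxB. No mm9 annotation was used here, so single genes were not placed within the spans.

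The stretch of HoxA under islands in all 6 lists ran for 141.2 kb, from 52094801 to 52236000. It was the longest of the 568 stretches of 20 kb or more that all 6 lists shared, taking the longest per merged region. The HoxD stretch, from 74483601 to 74592000, was 108.4 kb and the third longest. The HoxC stretch, from 102821201 to 102907600, was 86.4 kb and ranked 11, and the HoxB stretch, from 96108001 to 96179600, was 71.6 kb and ranked 24. The median over all 568 was 27.2 kb. HoxB thus had the longest gene span of the 4 clusters and the shortest stretch common to the 6 livers. Gaps in single lists set its ends. It stopped at a gap of 4.0 kb in TCPOBOP replicate 3 alone. It began after a gap of 3.6 kb in vehicle replicate 2, close to the end of a gap of 36.0 kb in TCPOBOP replicate 3.

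Splits inside the spans were short in all lists but 1. HoxA, which runs from Hoxa2, a hindbrain and pharyngeal arch gene, to Hoxa13 among the members, had no split in any of the 8 lists. HoxD had 1 split, of 3.2 kb in TCPOBOP replicate 3 (74592001 to 74595200). HoxC, from Hoxc4 to the hair and nail gene Hoxc13, had splits of 3.2 kb in vehicle replicate 3 (102758801 to 102762000) and TCPOBOP replicate 3 (102818001 to 102821200). HoxC and HoxD had none in the lists of fragments over 1100 bp. These splits are close to the smallest gap between listed islands, 2800 bp.

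The HoxB span was the one that broke up, with 7 splits in 4 of the 6 lists, and vehicle replicates 1 and 3 had none. Whether these splits lay over Hox genes or between them was not determined. Vehicle replicate 2 was split from 96084801 to 96088000 (3.2 kb) and from 96104401 to 96108000 (3.6 kb). TCPOBOP replicate 1 was split from 96070401 to 96074000 (3.6 kb) and from 96086001 to 96088800 (2.8 kb). TCPOBOP replicate 2 shared the split at 96084801 with vehicle replicate 2, and the nearby split of TCPOBOP replicate 1 overlapped it, so this place was open in livers of both treatments. TCPOBOP replicate 3 had a split of 36.0 kb, from 96070801 to 96106800, and another of 4.0 kb, from 96179601 to 96183600. The share of the HoxB span under islands was 100, 96.4 and 100% in vehicle replicates 1 to 3 and 96.6, 98.3 and 78.9% in TCPOBOP replicates 1 to 3. The last value stands apart from the other 5. TCPOBOP replicate 3 also had the fewest islands of the 6 lists, 6295 against 10057 to 14748, and the shortest covered length, 174.0 Mb against 196.1 to 340.1 Mb, and the part of this in the split was not tested. HoxB was not read in the lists of fragments over 1100 bp, where rows may be missing.

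**Figure D2:**
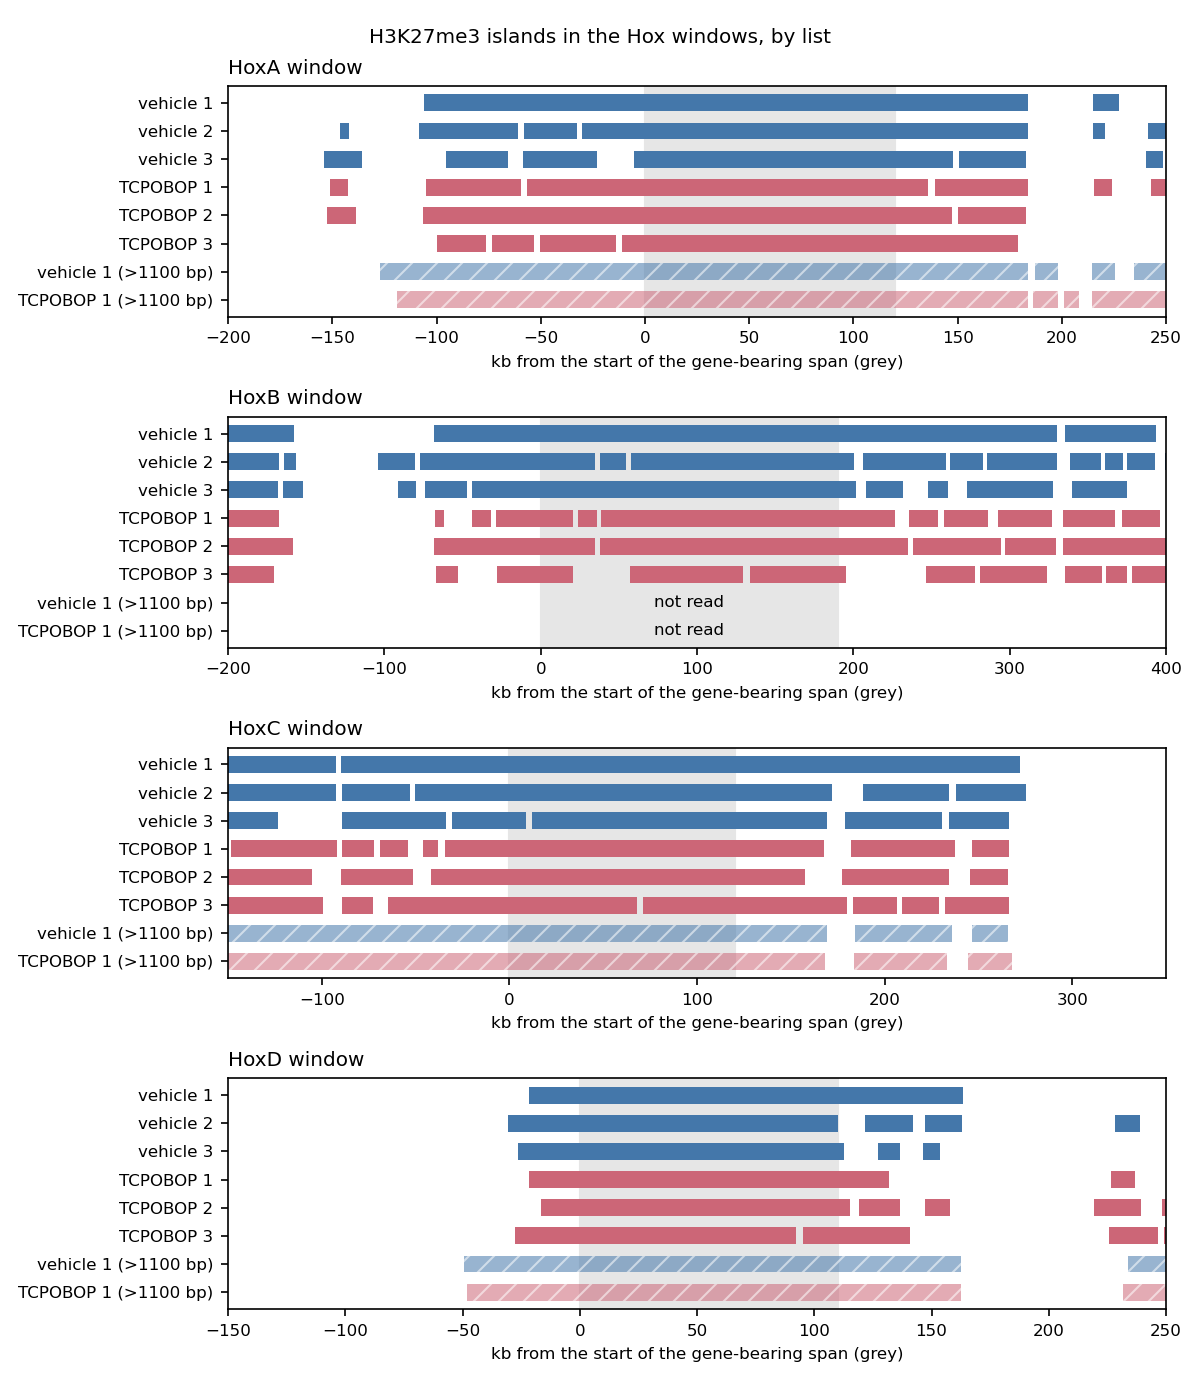
Islands of H3K27me3 in each Hox window, 1 row per list, with distance in kb from the start of the approximate gene-bearing span (grey). Solid bars are the 600 to 1100 bp libraries (vehicle blue, TCPOBOP red) and hatched bars the libraries over 1100 bp, which were not read for HoxB. The grey HoxA span is filled in all 8 lists, and the HoxB span shows the 36.0 kb split in TCPOBOP replicate 3.

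Within each list the islands over the clusters stood near the top by score, the authors' value for each island. The island that holds the shared HoxA stretch ranked 2, 1 and 1 in vehicle replicates 1 to 3 and 3, 1 and 3 in TCPOBOP replicates 1 to 3. The HoxC island ranked 3 in each vehicle list and 5, 2 and 14 in the TCPOBOP lists. The HoxD island ranked 11, 6 and 6 with vehicle and 10, 7 and 7 with TCPOBOP. The HoxB island had the widest spread of ranks, 4, 13 and 2 with vehicle and 8, 8 and 32 with TCPOBOP. Ranks from lists of different lengths show no change between treatments, so they are given as a description. In the lists over 1100 bp, vehicle before TCPOBOP, the ranks were 6 and 5 for HoxA, 2 and 3 for HoxC and 15 and 20 for HoxD.

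The width of these islands differed between lists. The HoxA island was 289.6, 213.6 and 153.2 kb wide in vehicle replicates 1 to 3 and 192.4, 253.6 and 190 kb in TCPOBOP replicates 1 to 3. The HoxB island was 398.8, 142.4 and 245.6 kb with vehicle and 188.0, 196.8 and 72.8 kb with TCPOBOP. The HoxC island was 361.6, 222.4 and 157.2 kb with vehicle and 202.0, 199.2 and 108.8 kb with TCPOBOP. For HoxD the widths were 185.2, 140.8 and 139.2 kb with vehicle and 153.6, 131.6 and 119.6 kb with TCPOBOP. In each cluster the treatments overlapped in width. The widest of the 6 was in vehicle replicate 1 for all 4 clusters, the list with the longest covered length. The same islands ranked lower by score per kb, between 27 and 79 for HoxA, 30 and 217 for HoxD, 51 and 202 for HoxC, and 105 and 984 for HoxB in the 6 lists. In every list each of the 4 islands thus ranked lower by score per kb than by score.

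**Figure D3:**
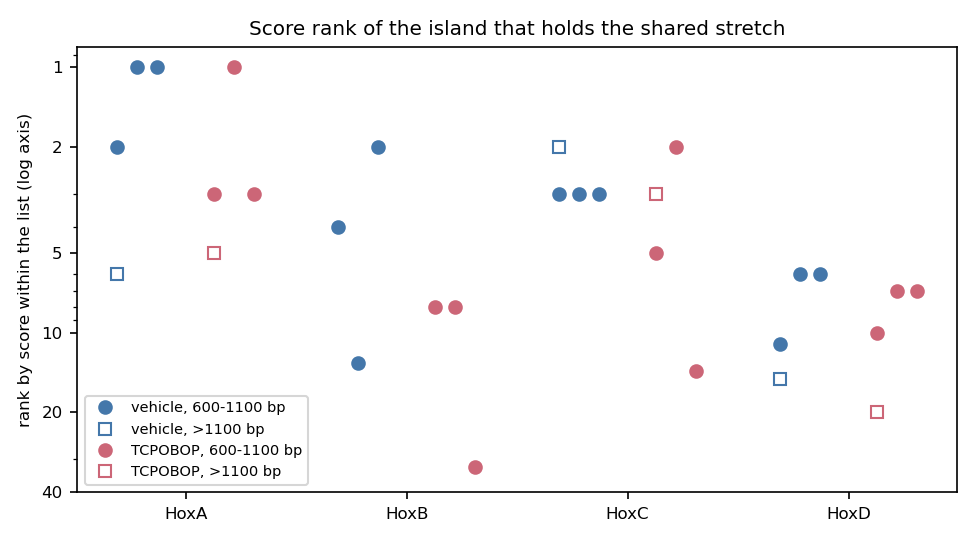
Rank by score within its own list (vertical axis, log scale, 1 at the top) of the island that holds the shared stretch of each cluster. Filled circles are the 600 to 1100 bp libraries and open squares those over 1100 bp (vehicle blue, TCPOBOP red). The HoxA points lie between 1 and 6, and HoxB reaches 32 in TCPOBOP replicate 3.

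Beyond the gene-bearing spans the islands went on over long distances. Edges were measured in 2 ways, always as kb beyond the span. In the planned measure, islands were joined across gaps of at most 10 kb. In the other, chosen after the data were seen, the outermost island ends were taken inside the region made by merging the islands of the 6 lists, so the lists themselves set where that region stops. "Lower" and "upper" refer to mm9 coordinates.

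With joining, the upper HoxA edge, on the side of Evx1, a homeobox gene next to Hoxa13, lay 63.6, 63.6 and 62.8 kb beyond the span in vehicle replicates 1 to 3 and 63.6, 62.8 and 58.8 kb in TCPOBOP replicates 1 to 3. Its range of 4.8 kb was undercut by 5.63% of the 1136 edges of the shared domains, whose median range was 33.0 kb. The lower HoxA edge, on the side of Skap2, lay at 106.0, 108.4 and 5.2 kb with vehicle and at 105.2, 106.4 and 99.6 kb with TCPOBOP. The low value came from 1 gap of 17.6 kb in vehicle replicate 3, and the islands beyond that gap reached 95.6 kb. With this value the lower HoxA edge ranged over 103.2 kb, and 85.0% of all edges ranged less. The lower HoxD edge, on the side of the homeobox gene Evx2, lay at 21.6, 30.8 and 26.4 kb with vehicle and at 21.6, 16.4 and 27.6 kb with TCPOBOP. The upper HoxD edge, on the side of Mtx2, a mitochondrial import gene, lay at 53.6, 0.0 and 2.8 kb with vehicle and at 22, 26.4 and 30.8 kb with TCPOBOP, so the vehicle livers spanned the TCPOBOP values.

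The joined edges of HoxB and HoxC varied far more, also against all edges of the shared domains. Of these, 92.8% ranged less than lower HoxB and 97.5% less than upper HoxB. For lower and upper HoxC the shares were 92.4 and 87.2%. The upper HoxB edge, on the side of Hoxb1 and Skap1, lay at 268.0, 250 and 42.0 kb with vehicle and at 244.4, 210.4 and 5.6 kb with TCPOBOP. The lower HoxB edge, on the side of Hoxb13 and Ttll6, lay at 68.4, 104.0 and 91.6 kb with vehicle and at 44.0, 68.4 and -56.8 kb with TCPOBOP, where the negative value is an edge inside the span, at the long split of replicate 3. The lower HoxC edge, on the side of Hoxc13 and Calcoco1, lay at 243.2, 196.4 and 89.2 kb with vehicle and at 192.0, 89.6 and 192.8 kb with TCPOBOP. The upper HoxC edge, on the side of Hoxc4 and Smug1, lay at 152.0, 52 and 146.4 kb with vehicle and at 47.6, 37.6 and 146.4 kb with TCPOBOP. By construction these values turn on which gaps exceeded 10 kb, and livers of both treatments had short and long upper HoxB edges.

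The outermost ends, which cannot pass the limits of the merged region, ranged less than the joined edges at most Hox edges. Upper HoxA and lower HoxD kept the same ranges, 4.8 and 14.4 kb. Over all 1136 edges the median range was also smaller, 14.4 kb against 33.0 kb with joining. The lower HoxC end fell at 102660401 in vehicle replicate 1 and TCPOBOP replicate 2 and at 102660801 in the other 4 lists, a range of 0.4 kb, which is 1 window of the caller. Of the 1136 edges, 28 (2.465%) ranged over at most 1 window. Among them 5 (0.440% of all) had a smaller range than this end, and the median range was 14.4 kb. A stretch of 2.4 kb, from 102658001 to 102660400, was free of islands in the 6 lists, and all 6 had further islands below it. These ended at 102657600 in vehicle replicates 1 and 2 and at 102658000 in TCPOBOP replicate 1. They ended at 102626400 in vehicle replicate 3 and at 102644800 and 102650800 in TCPOBOP replicates 2 and 3. The steady end is thus 1 side of a gap with islands beyond it in every list. In the lists over 1100 bp the islands bridged this gap, starting at 102556001 with vehicle and 102554001 with TCPOBOP. The upper HoxA end lay between 52278800 and 52283600 (4.8 kb), and the upper HoxB end between 96374000 and 96380400 (6.4 kb). The range was 9.2 kb for upper HoxC, 10.0 kb for lower HoxB, 12.8 kb for lower HoxA, 14.4 kb for lower HoxD and 31.6 kb for upper HoxD. Thus 5 of the 8 Hox edges ranged over at most 10 kb, as did 35.8% of all edges. The upper HoxD end was the loosest, with 81.5% of all edges below it.

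**Figure D4:**
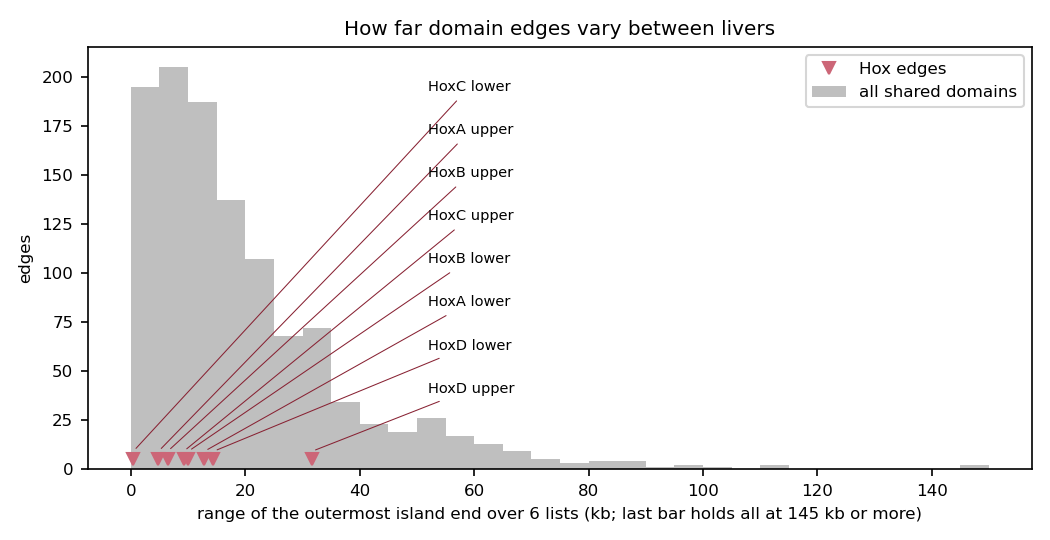
Range over the 6 lists of the outermost island end, in kb, for the 1136 edges of 568 shared domains (grey bars, number of edges) with the 8 Hox edges as labelled triangles. The HoxC lower end sits at 0.4 kb and the HoxD upper end at 31.6 kb, either side of the median of 14.4 kb.

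The outermost ends reached further on the side of the low-numbered genes in every list. Over the 6 livers the HoxA ends lay 103.5 ± 4.88 kb (SD, n = 6) beyond the Hoxa2 side and 62.5 ± 1.87 kb beyond the Hoxa13 side. The HoxB ends lay 138.2 ± 2.48 kb beyond the Hoxb1 side and 70.5 ± 4.13 kb beyond the Hoxb13 side (SD, n = 6). For HoxC the values were 148.7 ± 3.91 kb past Hoxc4 and 89.3 ± 0.207 kb past Hoxc13, and for HoxD 41.8 ± 12.8 kb past Hoxd1 and 24.1 ± 5.18 kb past Hoxd13 (SD, n = 6). The low-numbered side was the longer in 24 of 24 pairs of cluster and liver. In each cluster all 6 lists were read inside the same merged region, which limits their ends alike. For HoxC the Hoxc13 side was cut at the short free stretch described above, with islands beyond it in every list. The 6 HoxC pairs thus depend on where the merged region stops. The livers are therefore not separate observations of the direction. With joining across 10 kb the low-numbered side was the longer in 15 of 24, with HoxC at 1 of 6, so the pattern belongs to the outermost ends. It also rests on the approximate spans, which matters most for HoxD, where the sides differ least. In the lists over 1100 bp the direction varied with cluster and joining. In HoxA, islands without joining reached 127.2 and 119.2 kb past the low-numbered end and 63.6 kb in each list past the other. With joining across 10 kb the latter became 78.0 kb with vehicle and 260.4 kb with TCPOBOP, which reversed the direction in the TCPOBOP list, and across 20 kb it was reversed in both (262.0 and 260.4 kb). In HoxC the islands without joining had the opposite direction in them, with 49.2 and 48.0 kb past Hoxc4 and 194.0 and 196 kb past Hoxc13.

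Stretches free of islands in all 6 lists bounded most of the domains. Past the Hoxc4 side, 123.6 kb from 103025201 to 103148800 were free, also in the lists over 1100 bp. Before that limit, 3 separate stretches were covered in 6 of 6 lists, from 102938401 to 102956400, from 102959201 to 102979200 and from 102996401 to 103016000. On the Hoxd13 side, 119.2 kb from 74350001 to 74469200 were free in the 6 lists, while the lists over 1100 bp covered 15.8 and 14.4% of it, since their HoxD islands began at 74450401 and 74452001. On the Hoxd1 side, 55.6 kb from 74663601 to 74719200 were free in all 8 lists. HoxA was bounded by free stretches of 27.2 kb (51964401 to 51991600) and 31.2 kb (52283601 to 52314800) in the 6 lists. The lists over 1100 bp entered both: their islands over HoxA began at 51972801 and 51980801, and shorter islands lay from 52287201 to 52298000 with vehicle and from 52286401 to 52298000 and 52301201 to 52308400 with TCPOBOP. HoxB was bounded only by short free stretches, of 2.8 kb below (95970001 to 95972800) and 3.6 kb above (96380401 to 96384000), and a longer one of 48.0 kb lay further below, from 95898001 to 95946000.

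The treatments were then compared, to see whether TCPOBOP moved the domains within 3 h. No window and no edge separated the 3 TCPOBOP livers from the 3 vehicle livers. The HoxA window was 67.2, 67.8 and 61.6% covered in vehicle replicates 1 to 3 and 68.2, 66.7 and 59.9% in TCPOBOP replicates 1 to 3, or 65.5 ± 3.43% against 64.9 ± 4.40% (SD, n = 3, two-sided exact permutation p = 0.7). The HoxB window was 83.2, 83.9 and 76.1% covered with vehicle and 73.1, 82.7 and 60% with TCPOBOP, or 81.0 ± 4.32% against 71.9 ± 11.4% (SD, n = 3, exact permutation p = 0.2). That difference of -9.11 points was -3.14 points without TCPOBOP replicate 3, the list with the 36.0 kb split. The HoxC window was 83.8, 79.8 and 72.5% covered with vehicle and 74.9, 72.0 and 77.2% with TCPOBOP, or 78.7 ± 5.76% against 74.7 ± 2.61% (SD, n = 3, exact permutation p = 0.3). The HoxD window was 46.3, 46.8 and 38.9% covered with vehicle and 41.0, 45.3 and 46.7% with TCPOBOP, or 44.0 ± 4.42% against 44.3 ± 2.97% (SD, n = 3, exact permutation p = 0.9). In all 4 windows the livers of the treatments overlapped. Of 869 tiles of 400 kb with a mean cover of at least 25%, the treatments did not overlap in 2.88%.

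With joining, the treatments overlapped at all 8 edges, against a share of 7.83% of the 1136 edges at which they did not. The differences, TCPOBOP minus vehicle, ran from -69.5 kb at lower HoxB (88.0 ± 18.1 kb against 18.5 ± 66.4 kb, SD, n = 3, exact permutation p = 0.2) to 30.5 kb at lower HoxA (73.2 ± 58.9 kb against 104 ± 3.63 kb, SD, n = 3, exact permutation p = 0.9). At lower HoxB the difference exceeded the SD of each treatment, and at the other 7 edges it was smaller than the SD of at least 1 treatment. The HoxB difference was -31.8 kb without TCPOBOP replicate 3, and the HoxA difference was -3.47 kb without vehicle replicate 3. With outermost ends, again 0 of the 8 edges separated the treatments, against 7.66% of all edges. In both measures some overlaps were exact ties. The lower HoxB edge of vehicle replicate 1 and TCPOBOP replicate 2 lay at 68.4 kb with either measure, and all other TCPOBOP values were below it and all other vehicle values above. The upper HoxC end lay at 146.4 kb in vehicle replicate 3 and in TCPOBOP replicates 1 and 3, with TCPOBOP replicate 2 at 146.0 kb below and the other vehicle livers at 152.0 and 155.2 kb above. The lower HoxC ends differed by 0.0 kb (89.3 ± 0.231 kb in each treatment, SD, n = 3), and the lower HoxA ends by 0.4 kb. The lower HoxB ends differed by -5.47 kb (73.2 ± 4.45 kb against 67.7 ± 0.611 kb, SD, n = 3, exact permutation p = 0.2), far less than with joining. The widest difference was at upper HoxD, -16.4 kb (50 ± 5.56 kb against 33.6 ± 13.2 kb, SD, n = 3, exact permutation p = 0.2), the opposite sign of the 7.6 kb found with joining. In these 4 window tests and 8 edge tests the smallest exact p that 3 livers against 3 allow is 0.1, so none could pass 0.05.

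**Figure D5:**
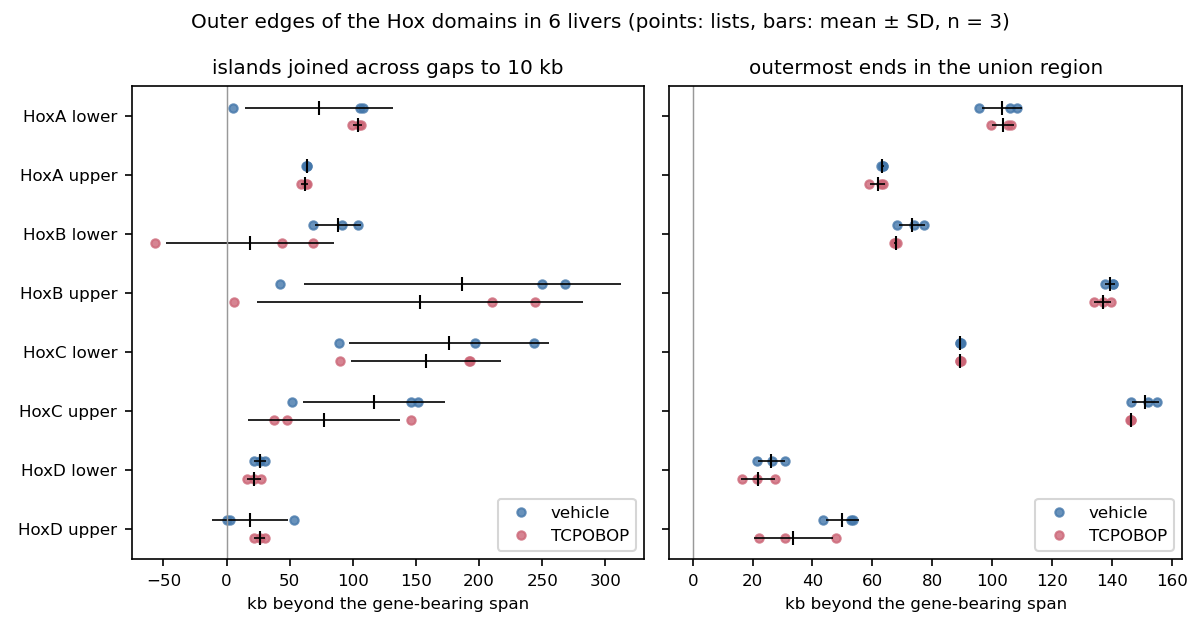
Distance of each domain edge beyond the gene-bearing span, in kb, with islands joined across gaps to 10 kb (left) and as outermost ends (right). Points are lists (vehicle blue, TCPOBOP red) and bars the mean ± SD of 3 livers. The treatments overlap at all 8 edges in either panel, and the 2 panels have different scales.

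Merging the islands of the 6 lists gave 13 regions that overlap the windows, some reaching beyond them, of which 12 were covered well enough to test. By limma, which fitted the covered fraction of 8659 regions across the genome, 0 regions passed an adjusted p of 0.05 (0.0% called, and 2.6% had an unadjusted p under 0.05), and every Hox region had an adjusted p of 1. In 2 of the 12 Hox regions the treatments did not overlap, or 16.7%, against 5.81% of all 8659 regions. They are named here because of these values. Both were less covered with TCPOBOP, a direction common over the genome. Of the 225 regions with an unadjusted limma p under 0.05, 194 were lower with TCPOBOP and 31 higher. Without TCPOBOP replicate 3 such regions were 104 lower and 121 higher, while lower ones prevailed with each other liver left out. The region below HoxB, from 95722801 to 95898000, lies mostly outside the HoxB window, which starts at 95850001. This region was 77.6, 75.1 and 74.2% covered with vehicle and 52.1, 59.8 and 28.1% with TCPOBOP. Its difference of -29.0 points (limma SE 22.3, adjusted p = 1) was -14.6 points with a shared score minimum and -17.4 points at equal covered length, and the treatments overlapped under both. The region that holds HoxC, from 102660401 to 103025200, was 99.1, 93.6 and 92.1% covered with vehicle and 87.2, 86.4 and 91.9% with TCPOBOP, a difference of -6.47 points (limma SE 6.49, adjusted p = 1). Here TCPOBOP replicate 3 lay just below vehicle replicate 3, and the treatments stayed apart under both settings. The region that holds HoxA was 99.2, 98.1 and 85.9% covered with vehicle and 96.7, 98.1 and 92.3% with TCPOBOP, and the treatments overlapped. The region that holds HoxB was 97.8, 95.5 and 89.4% covered with vehicle and 85.6, 95.4 and 66.7% with TCPOBOP, and again the treatments overlapped. The widest difference in the other direction was in a region of 27.2 kb beyond HoxD, from 74719201 to 74746400, which was 0, 38.2 and 0% covered with vehicle and 38.2, 73.5 and 76.5% with TCPOBOP. Its difference was 50 points (limma SE 32.8, adjusted p = 1), and the treatments met at the tie of 38.2%. On simulated data limma called 0 of 100 regions that changed by about 50 points. These fits therefore cannot decide whether differences of this size or smaller are changes. A further region below HoxB, from 95946001 to 95970000, was 0, 98.3 and 48.3% covered with vehicle and 0% in all 3 TCPOBOP livers, as in vehicle replicate 1.

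Some positions separated the treatments inside the windows. Covered in all 3 vehicle livers and no TCPOBOP liver were 0.8 kb of the HoxB window, 0.147% of its length under islands in any list. Covered in all 3 TCPOBOP livers and no vehicle liver were 2.8 kb of the HoxB window (0.513%) and 2.0 kb of the HoxD window (0.896%). In the HoxA and HoxC windows there were 0 kb of either kind. Over the genome, 0.932% of the length under islands was of the first kind and 0.263% of the second, and these differences from the windows were not tested.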

How the data were processed

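H3K27me3 ChIP-seq islands came as 1 list per library, 3 vehicle and 3 TCPOBOP livers (600 to 1100 bp) plus 2 libraries over 1100 bp, each group taken from the sample titles. The deposited score is the authors' value for each island, used only to rank or filter islands. Tools named in the submitters' processing notes are Bowtie2 2.3.2 and SICER 1.1, with the build mm9 and no roles. Parameters in the file names are a 400 bp window, a 2400 bp gap and an E value of 100. Islands were listed per library, not on pooled livers. Whether an input was used is not stated in the labels. The lists hold no reads, so depth is unknown and no counting interval was computed.

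The 6 lists held 6295 to 14748 islands covering 174.0 to 340.1 Mb, and the others 17577 and 22077. Coordinates are mm9, 1-based. The spans and the Alb and Afp window are approximate mm9 positions from general knowledge. Gene order comes from a GRCm38.p6 table, with no coordinates converted. The rule for named genes was the listed Hox genes, up to 2 coding neighbours per side, and Alb and Afp. The members, windows and tests were chosen with earlier results of these data known.

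Two-sided exact permutation tests over 20 labellings compared percent covered and edges. The covered fraction of merged regions at 50% or more in at least 2 lists was tested with limma 3.58.1 (R 4.3.3, trend, Benjamini-Hochberg threshold 0.05). Tested on simulated data with 8659 regions for TCPOBOP against vehicle, limma found 87 of 100 regions that changed fully and made 0 false calls. Of 100 regions that changed in part, by about 50 points of cover, it found 0. The edge script was tested on simulated islands. Python 3.11.15, numpy 2.4.6, pandas 2.3.3 and matplotlib 3.10.9 were used. Alternatives were a score minimum of 84.63, equal covered length (174.0 Mb), other joins, the span alone, other region rules, an arcsine scale, a replicate block and each liver left out.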

Additional observations from a re-analysis of the deposited data

How the results depend on the processing

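Two-sided exact tests with 3 livers a group cannot reach 0.05, so for these tests the settings moved values and not calls. The cause of each change was not tested. The HoxD window difference of 0.333 points turned to -0.970 with the span alone, -0.167 with all lists cut to equal covered length, and to -1.30 under the score minimum. The upper HoxD edge difference of 7.6 kb turned to -15.7 kb without joining and -16.4 kb both with joins to 20 kb and with outermost ends. The lower HoxC edge difference of -18.1 kb became -113.3 kb with the score minimum, the largest of the 8 there, and -70.7 kb at equal length, and the upper HoxB difference of -33.2 kb became -122.5 kb with joins to 20 kb. With 1 liver left out in turn, window differences ran from -2.59 to 1.88 points for HoxA, -14.5 to -3.14 for HoxB, -7.15 to -1.47 for HoxC and -2.22 to 2.0 for HoxD. Edge differences (lower, then upper) ran from -3.47 to 48.1 and -2.53 to -0.133 kb for HoxA, -94.4 to -31.8 and -105.5 to 40.7 kb for HoxB, -61.7 to 16.1 and -74.2 to -19.8 kb for HoxC, and -7.27 to -1.67 and -1.8 to 25 kb for HoxD. The number of Hox edges at which the treatments did not overlap ran from 0 to 2 (2 without vehicle replicate 1 or 3, 1 without TCPOBOP replicate 2 or 3), against 14.4 to 21.1% of all edges. limma called 0 regions with each liver left out and 1 region, outside the Hox windows, on the arcsine scale. Same-numbered livers did not deviate together (r = -0.0539, -0.0163 and 0.0390). A replicate block left 0 limma calls and the lower HoxB difference at -69.5 kb (exact sign-flip permutation test of the mean paired difference, smallest p 0.25). The lists give no read counts, so the strength of islands near the calling threshold is unknown, and domain ends move in steps of 400 bp.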
